A study of Mus musculus with 12 samples.

Results

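The genes described here are 40 heat shock proteins, chaperones and their partners in the dorsal root ganglia of mice; these ganglia lie next to the spinal cord and hold the cell bodies of sensory neurons. The list was drawn up by name and class with earlier results of these data known, and its genes are 40 of 35583 with a listed transcript. They fall into 10 classes: 6 members of the HSP70 family, 3 of the related HSP110 family, 4 small heat shock proteins, 2 subunits of the mitochondrial chaperonin, 2 cytosolic HSP90 proteins, 2 heat shock factors, 3 BAG co-chaperones, 11 DNAJ co-chaperones, 5 subunits of the cytosolic chaperonin CCT and 2 adaptors between HSP70 and HSP90. All 40 passed the filter on low counts in each comparison.

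Poly(A) RNA was sequenced from wild-type (WT) mice and from YAC Q84 mice, all aged 24 weeks. YAC Q84 mice carry the human ATXN3 gene with an expanded CAG repeat on a yeast artificial chromosome, in addition to their own Atxn3, and serve as a model of spinocerebellar ataxia type 3. The 12 libraries were labelled as 3 WT male, 3 WT female, 1 Q84 male and 5 Q84 female, each with 66490481 to 86891563 estimated counts. Strain background, transgene copy number and whether each library came from a separate animal are not given in the sources used here, so p-values measure only the spread between libraries.

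The genotype labels were checked with an Atxn3 transcript of 1000 bases onto which reads from human ATXN3 can be placed. It lay between 62.7 and 79.4 TPM (transcript abundance corrected for length and scaled to the library) in the libraries labelled Q84 male 1 and Q84 female 1 to 4, and at 0.285 TPM or less in 5 WT libraries. The library labelled WT female 2 held 34.0 TPM and the library labelled Q84 female 5 held 0.061 TPM. These 2 libraries go against their labels and are shown apart below, so each comparison of Q84 with WT is given for all 12 libraries as labelled and for the 10 others. Neither library was moved to the other genotype. As a check of the tissue, the neuronal RNA-binding protein gene Elavl4 stood at 364 to 531 CPM (counts scaled to library size, not to length) in the 5 WT libraries and at 323 to 374 CPM in the 5 Q84 libraries.

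Chaperones bind unfolded or newly made proteins and keep them from aggregating. HSP70 proteins work in cycles of ATP binding and hydrolysis, in which DNAJ proteins deliver the client and stimulate hydrolysis, and HSP110 and BAG proteins release the nucleotide so that the client can leave. HSP90 finishes the folding of many kinases and receptors, CCT folds actin and tubulin inside a closed ring, and small heat shock proteins hold unfolded proteins without using ATP. Under protein damage, heat shock factor 1 binds repeated nGAAn units in promoters and switches many of these genes on. In diseases of expanded polyglutamine such as spinocerebellar ataxia type 3, HSP70 and DNAJ proteins are studied because they act on the misfolded protein, and HSPA8 and DNAJ proteins also strip clathrin from vesicles in neurons.

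Levels per length differed over more than 3 orders of magnitude among the members. On the TPM scale, summed over the transcripts of a gene, Hspa8, the constitutive cytosolic HSP70, was highest, with a median over the 12 libraries of 3969 TPM and a range of 2752 to 4697 TPM. Hsp90aa1 had a median of 2911 TPM, Hsp90ab1 of 993 TPM and Dnaja1, a cytosolic DNAJ protein, of 916 TPM. These 4 genes held between 61.9 and 65.5% of the summed TPM of the 40 members. The next gene, the CCT subunit gene Tcp1, had a median of 354 TPM. Ranges of neighbouring genes overlapped over most of the order, as those of Tcp1 (327 to 381 TPM), Hspb8 (279 to 392 TPM) and Hspe1 (259 to 361 TPM) did. At the other end stood the stress-inducible HSP70 genes, Hspa1b at a median of 0.9 TPM and Hspa1a at 0.7 TPM. Together the 40 members made up 1.18 to 1.51% of all TPM in a library.

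**Figure D1:**
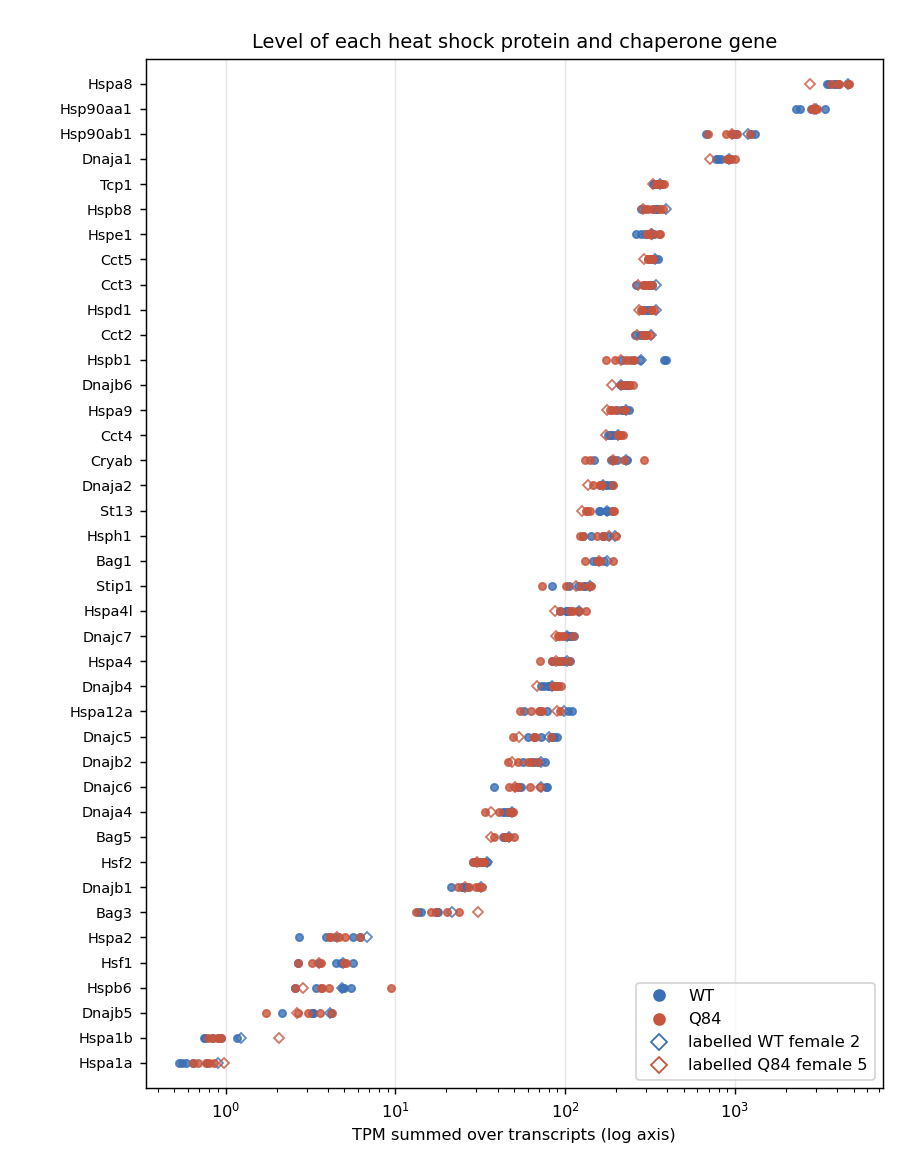
Level of each of the 40 genes in each of 12 libraries, in TPM summed over transcripts on a log axis, with genes ordered by their median. Filled circles are the 5 WT (blue) and 5 Q84 (red) libraries, and open diamonds the libraries labelled WT female 2 (blue) and Q84 female 5 (red); Hspa8 and Hsp90aa1 lead at medians of 3969 and 2911 TPM, and the inducible Hspa1a and Hspa1b lie lowest.

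Promoter sequences were examined because heat shock factor 1 acts on several of these genes through the same short element. RefSeq promoter windows (GRCm38.p6), from 250 bases before to 50 bases after a listed start, were matched for 31 of the 40 genes. The 9 genes without a matched window were Hspa8, Hspa9, Cryab, Hsp90aa1, Hsp90ab1, Hsf1, Dnajc5, Cct4 and St13. A pair of facing units, GAANNTTC, which reads the same on both strands, was found in 13 of these 31 genes (41.9%), and in 9.04% of the 27025 genes with a window. The pair in the other order, TTCNNGAA, also its own reverse complement and overlapping the first wherever 3 units stand in a row, was found in 6 of 31 (19.4%) and in 9.60% of all genes. A run of 3 alternating units on either strand was found in Dnajb6, Hspd1, Hspe1 and Hsph1 (12.9%), and in 0.662% of all genes. A gene was counted if any of its windows matched, and the 31 members had 49 windows where the 27025 genes had 32851. Such a match is a string of letters and not a measured binding site. The following stretches are shown because they come from both inducible HSP70 genes, a small heat shock protein, an abundant DNAJ gene and a chaperonin gene with a longer run of units. Capitals mark the matched units, which in Hspd1 are overlapping runs of 3 that together make 4 alternating units, and each stretch is written on the strand of its gene.
Hspa1a, chr17:34972233-34972280, minus strand: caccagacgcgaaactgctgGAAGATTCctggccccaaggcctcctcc
Hspa1b, chr17:34959315-34959362, minus strand: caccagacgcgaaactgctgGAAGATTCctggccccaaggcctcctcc
Hspb1, chr5:135887782-135887849, plus strand: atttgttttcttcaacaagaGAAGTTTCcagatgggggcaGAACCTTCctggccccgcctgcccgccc
Dnaja1, chr4:40722324-40722371, plus strand: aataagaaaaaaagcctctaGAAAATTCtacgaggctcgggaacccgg
Hspd1, chr1:55088053-55088082, minus strand: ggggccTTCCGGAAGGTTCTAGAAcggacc
The stretches of Hspa1a and Hspa1b are identical, and over the 250 bases before their starts the genes differ at 3 bases. Hspd1 and Hspe1, which encode both parts of the mitochondrial chaperonin, start on opposite strands of chromosome 1. Hspd1 has listed starts at bases 55088243 and 55087932 and Hspe1 at base 55088148, and the Hspd1 stretch lies before the second of the Hspd1 starts but after the first. The same stretch lies within the 250 bases before the Hspe1 start, so its units are counted for both genes. The median log2 fold change of Q84 against WT in 10 libraries was 0.06 over the 13 members with GAANNTTC and 0.04 over the 18 with a window that lacks it. Hspa8, Hsp90aa1 and Cct4, without a matched window, are in neither median.

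Across the 12 libraries as labelled, none of the 40 genes passed the test of Q84 against WT. The edgeR quasi-likelihood test called 0 members at an adjusted p under 0.05, where it called 1 of 18875 genes (0.0053%), and DESeq2 and limma-voom also called 0 members. At an unadjusted p under 0.05 there were 3 members, Hspb1, Hsp90aa1 and Cct4. Of all 18875 genes, 2695 were under that level, a larger share than that of the members. The median log2 fold change was 0.02 over the members and 0.01 over all genes tested. Above zero lay 24 members and below it 16, where 9939 of all genes lay above and 8936 below. No member had groups that did not overlap, against 0.413% of all genes with Q84 wholly higher and 1.17% with Q84 wholly lower.

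In the 10 libraries, 1 of 40 members rose in Q84, Hspa8, and none fell. Among all 18721 genes tested, 6.45% were called, 1.52% higher and 4.93% lower, so the members' share of 1 in 40 lay near the background of rises. The 6 members at an unadjusted p under 0.05 were Hspa8, Hspa4l, Hspb6, Hsp90aa1, Dnajb1 and Cct4, all with a positive difference. Of all 18721 genes, 3785 were under that level, a larger share than that of the members. The median log2 fold change was 0.05 over the members and 0.01 over all genes. Above zero lay 28 members and below it 12, where 9795 of all genes lay above and 8926 below. Q84 and WT did not overlap for 3 members, Hspa8, Dnajb1 and Cct4, all higher in Q84, where 2.72% of all genes did not overlap in that direction. No member lay wholly lower, against 5.97% of all genes. DESeq2 called Hspa8, Dnajb1 and Hspb6 in these libraries, 3 of 40 where it called 10.3% of all genes. Standard errors of the members ran from 0.065 to 0.216 on the log2 scale, which sets the size of difference these libraries can show.

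**Figure D2:**
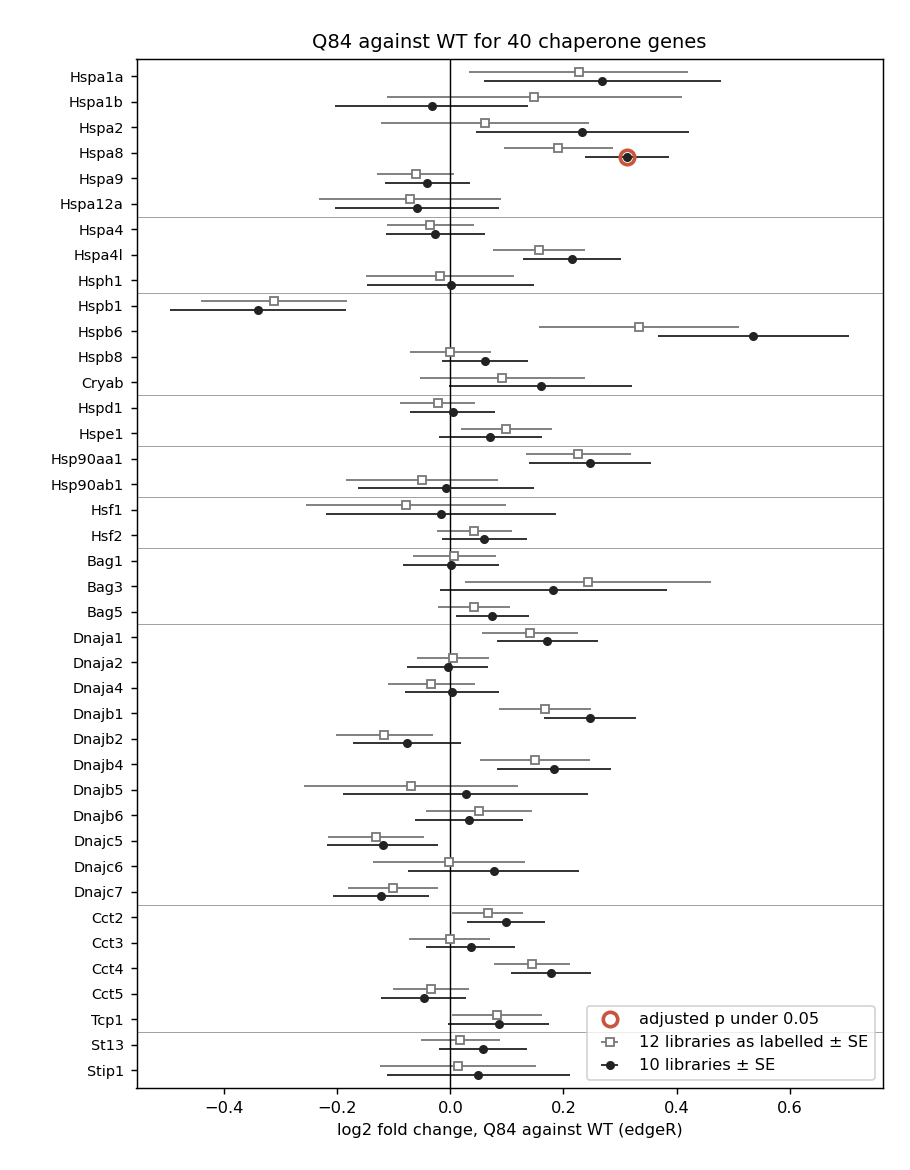
Log2 fold change of Q84 against WT from edgeR for each of the 40 genes, ordered by class, with bars of 1 standard error. Grey squares are the 12 libraries as labelled and black circles the 10 libraries; the red ring marks Hspa8, at 0.31 the only member with an adjusted p under 0.05, and most other values lie close to zero.

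**Figure D3:**
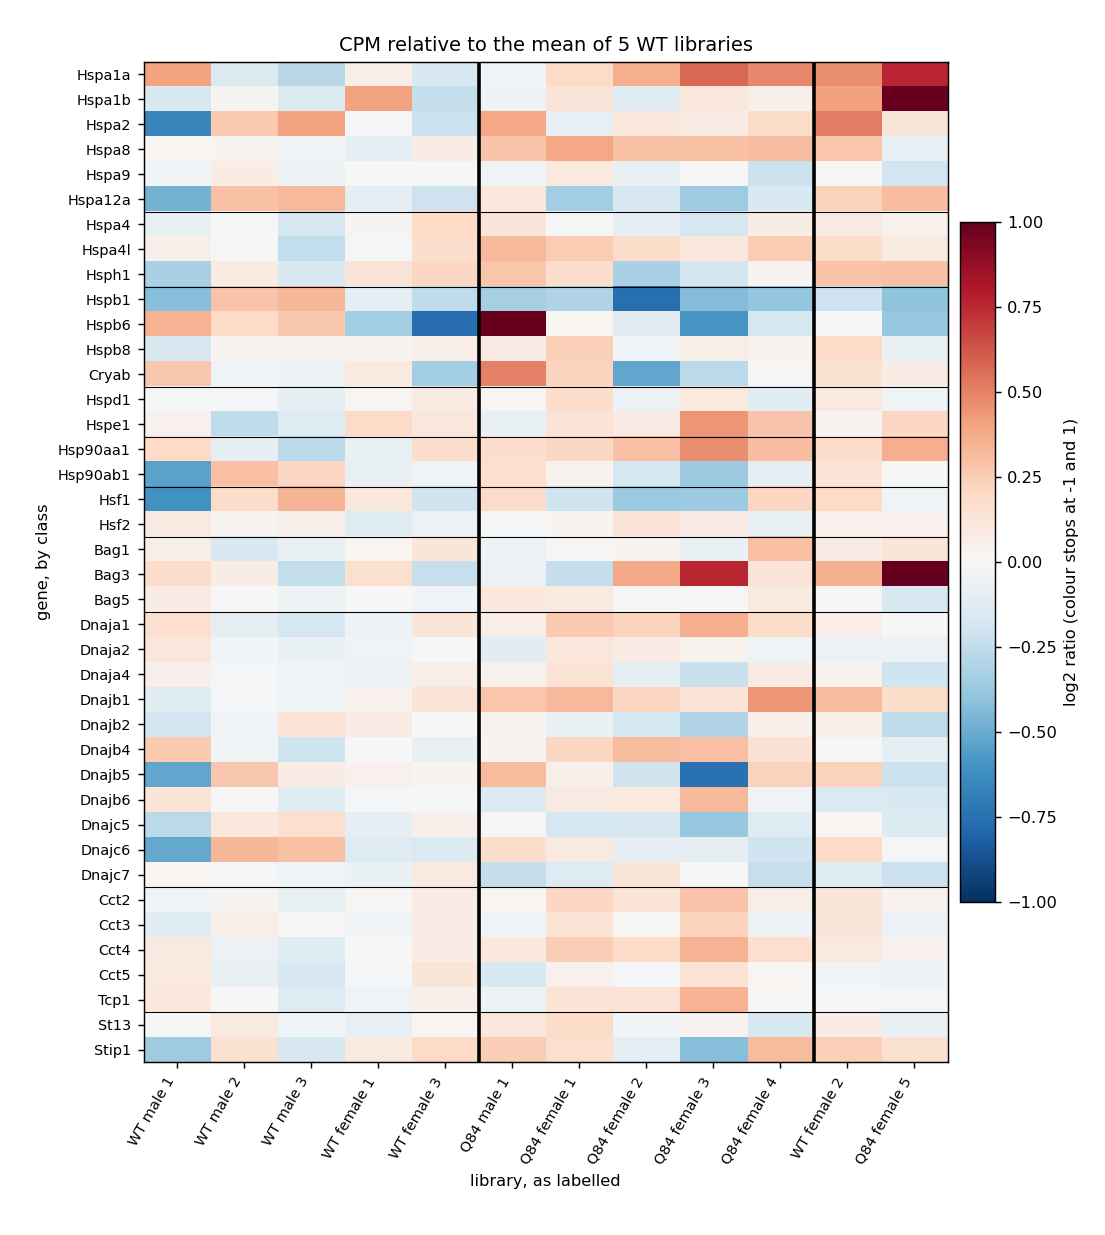
CPM of each gene in each library as a log2 ratio to the mean of the 5 WT libraries, with colour stopping at -1 and 1. Thick lines separate the 5 WT libraries, the 5 Q84 libraries and the 2 libraries shown apart (WT female 2, then Q84 female 5); the Hspa8 row is red in all 5 Q84 libraries and in WT female 2 and near white in WT and in Q84 female 5.

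Hspa8 encodes HSC70, the HSP70 of unstressed cells, which also uncoats clathrin-coated vesicles. It measured 4937, 4965 and 4785 CPM in WT male 1 to 3 and 4553 and 5145 CPM in WT female 1 and 3. In Q84 it measured 5949 CPM in the male and 6367, 5983, 5969 and 6051 CPM in females 1 to 4. Every Q84 library thus lay above every WT library, by means of 6064 ± 174 against 4877 ± 222 CPM (SD, n = 5 each). The libraries shown apart ran against their labels: WT female 2 held 5917 CPM and Q84 female 5 held 4598 CPM. In 10 libraries the log2 fold change was 0.31 ± 0.074 (SE), with an edgeR adjusted p of 0.0272. In 12 libraries as labelled it was 0.19 ± 0.096, with an edgeR adjusted p of 0.390.

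The Hspa8 call in 10 libraries was also made by DESeq2 (adjusted p = 6.7e-05), limma-voom (adjusted p = 0.00724), edgeR with DESeq2's size factors (adjusted p = 0.0397), edgeR with no filter on low counts (adjusted p = 0.0251) and edgeR without the sex term (adjusted p = 0.00979). Of the fits that each left out 1 library, it was kept without WT male 1 (edgeR adjusted p = 0.0211) and lost in the other 9. Without WT male 2, WT male 3, WT female 1 and WT female 3 the edgeR adjusted p was 0.0737, 0.0820, 0.120 and 0.0607. Without Q84 male 1 it was 0.0823, and without Q84 female 1 to 4 it was 0.0572, 0.0563, 0.0522 and 0.0675. The log2 fold change stayed between 0.26 and 0.35 in these fits. With length-scaled TPM in place of counts it was 0.22, with an edgeR adjusted p of 0.142, and in the female libraries alone it was 0.34, with an edgeR adjusted p of 0.0881. On the TPM scale summed over transcripts the groups overlapped, at 3478 to 4061 TPM in WT and 3655 to 4697 TPM in Q84.

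The transcripts of Hspa8 had different patterns. The full-length protein-coding transcript Hspa8-201, of 2394 bases, measured 2744 to 3148 TPM in the 5 WT libraries and 3224 to 3850 TPM in the 5 Q84 libraries, with no overlap. The short non-coding entry Hspa8-203, of 598 bases, measured 688 to 908 TPM in WT. In Q84 it stood at 734 TPM in the male, at 843 TPM in female 1 and at 427, 386 and 288 TPM in females 2, 3 and 4. In the library labelled Q84 female 5 it was at 15.2 TPM, the lowest of all 12, and in WT female 2 at 705 TPM. Of the 568 31-base words of Hspa8-203, 542 also occur in Hspa8-201, so the division of reads between these transcripts is an estimate. Hspa8-203 took 0.095 to 4.80% of the gene's estimated counts.

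**Figure D4:**
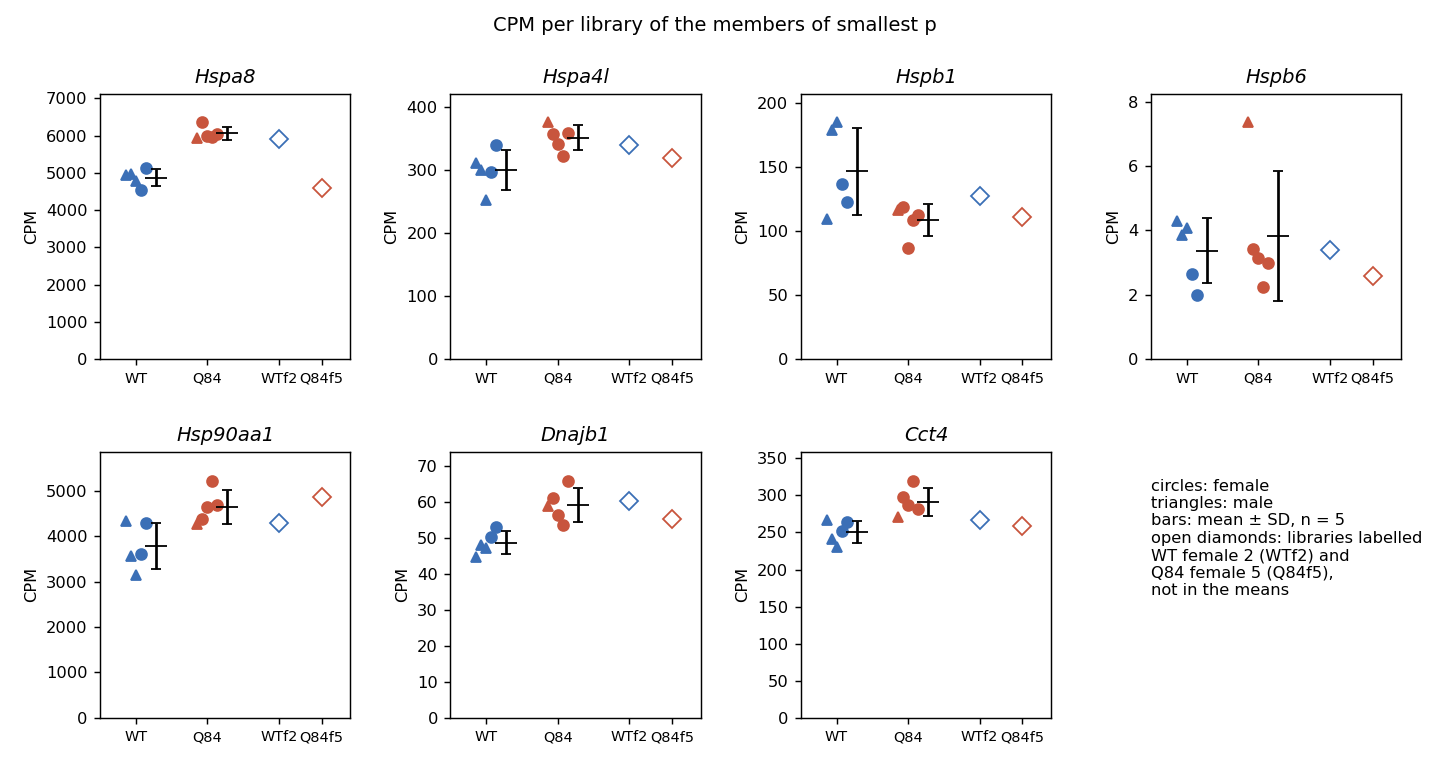
CPM in each library for the 7 members of smallest p, on axes that start at 0. Circles are female and triangles male libraries, bars give the mean ± SD of 5 WT or 5 Q84 libraries, and open diamonds are the 2 libraries shown apart; Hspa8, Dnajb1 and Cct4 are the panels in which no Q84 point reaches down to a WT point.

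The other HSP70 genes did not pass in either comparison. The stress-inducible pair was close to silent: in the 10 libraries Hspa1a stood at 1.01 to 1.62 CPM in WT and 1.20 to 1.83 CPM in Q84, and Hspa1b at 1.40 to 2.18 CPM in WT and 1.52 to 1.80 CPM in Q84. The library labelled Q84 female 5 was highest in both, at 2.08 and 4.16 CPM. Because Hspa1a and Hspa1b are near-identical copies, the division of reads between them is uncertain. Hspa9, the mitochondrial HSP70, was among the steadiest members, at 440 ± 14.6 CPM in WT libraries and 427 ± 33.5 CPM in Q84 libraries (SD, n = 5 each). Hspa2, best known for its role in male germ cells, ranged from 4.72 to 9.85 CPM in WT and from 7.05 to 9.74 CPM in Q84. The brain-enriched Hspa12a ranged from 213 to 369 CPM in WT and from 230 to 317 CPM in Q84, and WT male 1 was lowest for both Hspa2 and Hspa12a.

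HSP110 proteins act as nucleotide exchange factors for HSP70 and, with it, pull apart aggregated protein. Hspa4l measured 311, 300 and 253 CPM in WT male 1 to 3 and 296 and 339 CPM in WT female 1 and 3. The Q84 libraries held 376 CPM in the male and 358, 341, 323 and 358 CPM in females 1 to 4. The groups overlapped, at WT female 3 and Q84 female 3, although all 5 Q84 libraries lay above the WT mean. WT female 2 held 340 CPM and Q84 female 5 held 319 CPM. The log2 fold change was 0.22 ± 0.087 (SE; edgeR adjusted p = 0.186) in 10 libraries and 0.16 ± 0.081 (edgeR adjusted p = 0.404) in 12. Hspa4 stood at 286 ± 27.4 CPM in WT libraries and 284 ± 23.2 CPM in Q84 libraries, and Hsph1 at 283 ± 41.5 and 285 ± 48.3 CPM (SD, n = 5 each), both far closer than their spread.

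Small heat shock proteins form large oligomers that hold unfolded proteins, and Hspb1 is known as a marker of injured sensory neurons and as a gene of inherited motor neuropathy. Hspb1 measured 109, 179 and 185 CPM in WT male 1 to 3 and 137 and 123 CPM in WT female 1 and 3. In Q84 it measured 117 CPM in the male and 119, 87.1, 109 and 112 CPM in females 1 to 4. All 5 Q84 libraries lay below the WT mean of 147 CPM, but WT male 1 lay among them. The libraries shown apart held 127 CPM (WT female 2) and 111 CPM (Q84 female 5). The log2 fold change was -0.34 ± 0.155 (SE; edgeR adjusted p = 0.250) in 10 libraries and -0.31 ± 0.129 (edgeR adjusted p = 0.291) in 12. Without WT male 1 the 10-library value was -0.40, with an edgeR adjusted p of 0.0303, and Hspb1 then passed. It passed in only this 1 of 10 fits that each left out 1 library, and in 0 of 8 other alternative fits. Over the 10 fits the log2 fold change ran from -0.40 to -0.28 and the edgeR adjusted p up to 0.549.

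Hspb6, a small heat shock protein of muscle, was scarce and highest in the Q84 male. It measured 4.29, 3.86 and 4.08 CPM in WT male 1 to 3, 2.66 and 1.99 CPM in WT female 1 and 3, 7.37 CPM in Q84 male 1 and 3.42, 3.14, 2.24 and 2.99 CPM in Q84 female 1 to 4, with 3.38 CPM in WT female 2 and 2.59 CPM in Q84 female 5. Male libraries lay above female libraries of the same label, and the model with a sex term gave a log2 fold change of 0.54 ± 0.169 (SE; edgeR adjusted p = 0.0892) in 10 libraries and 0.33 ± 0.177 (edgeR adjusted p = 0.419) in 12. Hspb6 passed in 2 of 10 fits that each left out 1 of the 10 libraries. These were without WT female 1 (0.71, edgeR adjusted p = 0.0425) and without Q84 female 3 (0.62, edgeR adjusted p = 0.0373). Over the 10 fits the log2 fold change ran from 0.34 to 0.71 and the edgeR adjusted p up to 0.487. Of 8 other alternative fits 1 passed, and over these 8 the log2 fold change ran from 0.18 to 0.58. Cryab, which encodes alphaB-crystallin, was also highest in Q84 male 1, at 124 CPM, against 61.2 to 105 CPM in the other libraries of the 10. Summed skeletal muscle markers were highest in the same library, at 1876 CPM against 134 to 1207 CPM in the other 9, and their part in the Hspb6 and Cryab values was not tested. Hspb8, the partner of Bag3 in disposing of misfolded protein, stood at 331 to 387 CPM in WT and 363 to 436 CPM in Q84.

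Hspd1 and Hspe1 encode HSP60 and HSP10, the barrel and the lid of the mitochondrial chaperonin. Hspd1 stood at 459 ± 20.1 CPM in WT libraries and 468 ± 37.5 CPM in Q84 libraries, and Hspe1 at 118 ± 14.6 CPM in WT libraries and 134 ± 18.3 CPM in Q84 libraries (SD, n = 5 each). Both pairs of groups overlapped, and neither gene passed in either comparison. The highest Hspe1 value, 160 CPM, was in Q84 female 3.

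Hsp90aa1 encodes the more inducible and Hsp90ab1 the more constant form of cytosolic HSP90. Hsp90aa1 measured 4349, 3574 and 3160 CPM in WT male 1 to 3 and 3606 and 4287 CPM in WT female 1 and 3. The Q84 libraries held 4285 CPM in the male and 4382, 4661, 5235 and 4696 CPM in females 1 to 4. The ranges met only at their edges, where WT male 1 and WT female 3 lay just above the Q84 male. Both libraries shown apart were within the Q84 range, at 4299 CPM (WT female 2) and 4880 CPM (Q84 female 5). WT female 2 also lay within the WT range, and here Q84 female 5 did not run against its label. The log2 fold change was 0.25 ± 0.108 (SE; edgeR adjusted p = 0.222) in 10 libraries and 0.23 ± 0.093 (edgeR adjusted p = 0.288) in 12. Hsp90ab1 ranged from 1162 to 2073 CPM in WT and from 1310 to 1890 CPM in Q84, with the lowest values in WT male 1 and Q84 female 3.

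A short Hsp90aa1 transcript set apart a pair of WT libraries. Hsp90aa1-203, of 427 bases, stood at 310 TPM in WT female 1 and 349 TPM in WT female 3, and at 4.87 to 33.8 TPM in the other 10 libraries. It held at most 1.38% of the counts of the gene. The correction of transcript length for fragment size was 212 bases in WT female 1 and 223 bases in WT female 3. It was 216 bases in WT male 3, where Hsp90aa1-203 stood at 33.8 TPM, and 231 to 242 bases in the other libraries. The part of this correction in the levels of Hsp90aa1-203 was not tested. The main transcript, Hsp90aa1-201, measured 1208 to 1577 TPM in the 5 WT libraries and 1650 to 1801 TPM in the 5 Q84 libraries, with no overlap, and stood at 1735 TPM in WT female 2 and 1843 TPM in Q84 female 5.

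The heat shock factors were low, and their genotype means differed by less than the spread within a group. Hsf1, the main switch of the heat shock response, stood at 5.54 ± 1.33 CPM in WT libraries and 5.23 ± 1.06 CPM in Q84 libraries (SD, n = 5 each), with the lowest value, 3.63 CPM, in WT male 1. Hsf2 stood at 53.1 ± 3.17 CPM in WT libraries and 54.3 ± 2.90 CPM in Q84 libraries.

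BAG proteins bind HSP70 and pass its clients to the proteasome (Bag1) or to autophagy (Bag3), while Bag5 binds parkin and several chaperones. Summed over transcripts, Bag1 stood at 123 ± 8.97 CPM in WT libraries and 127 ± 13.8 CPM in Q84 libraries, and Bag5 at 59.7 ± 2.02 and 62.2 ± 2.11 CPM (SD, n = 5 each). Bag3 was the most variable of the class, at 22.8 to 30.8 CPM in WT and 23.0 to 45.7 CPM in Q84. Its highest values were 45.7 CPM in Q84 female 3 and 55.4 CPM in the library labelled Q84 female 5, which was also highest for Hspa1a and Hspa1b. None of the 3 passed in either comparison.

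Below the level of the gene, the reads of Bag1 were divided between its transcripts in different shares in the Q84 and the WT libraries. Bag1-201, of 1295 bases, measured 72.8, 68.4 and 60.7 TPM in WT male 1 to 3 and 55.6 and 66.9 TPM in WT female 1 and 3. In Q84 it measured 104 TPM in the male and 94.7, 102, 77.7 and 116 TPM in females 1 to 4, all above the WT range. Bag1-202, of 1336 bases, measured 47.5 to 72.5 TPM in WT and 35.6 to 42.1 TPM in Q84, all below the WT range. As a share of the gene's estimated counts, Bag1-201 held 34.8 to 46.1% in WT and 58.4 to 64.5% in Q84. The library labelled Q84 female 5 lay with Q84, at 106 TPM of Bag1-201 and 30.96 TPM of Bag1-202, so this difference, unlike that of Hspa8, was on the side of the label there. WT female 2 held 100 TPM of Bag1-201 and 60.4 TPM of Bag1-202. Both entries are protein-coding, and 1265 of 1306 31-base words of Bag1-202 occur in Bag1-201, which has 1265 in all. Bag1-201 thus has little or no sequence of its own, and its division from Bag1-202 rests on the few reads that cover the rest of Bag1-202. Another listed Bag1 transcript, of 1348 bases, measured 17.2 to 41.7 TPM in the 5 WT libraries and 11.8 to 32.5 TPM in the 5 Q84 libraries. The words it shares with these entries were not counted, so its part in the division is not known. The rise of Bag1-201 and the fall of Bag1-202 are therefore not separate observations. The correction of transcript length for fragment size was 212 to 239 bases in the 5 WT libraries. It was 233 to 242 bases in the 5 Q84 libraries, and its part in this division was not tested.

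Bag1 was picked after its values were seen, from a scan of the 59 member transcripts with a median of 10 TPM or more, of 245 in all. Groups did not overlap for 5 of the 59 that were higher in Q84, where 2.76% of all such transcripts did not overlap in that direction. They were Hspa8-201, Hsp90aa1-201, Dnaja1-201, Cct4-204 and Bag1-201. For 1 of the 59, Bag1-202, Q84 lay wholly lower, against 7.87% of all such transcripts. No test of transcript use was run.

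**Figure D5:**
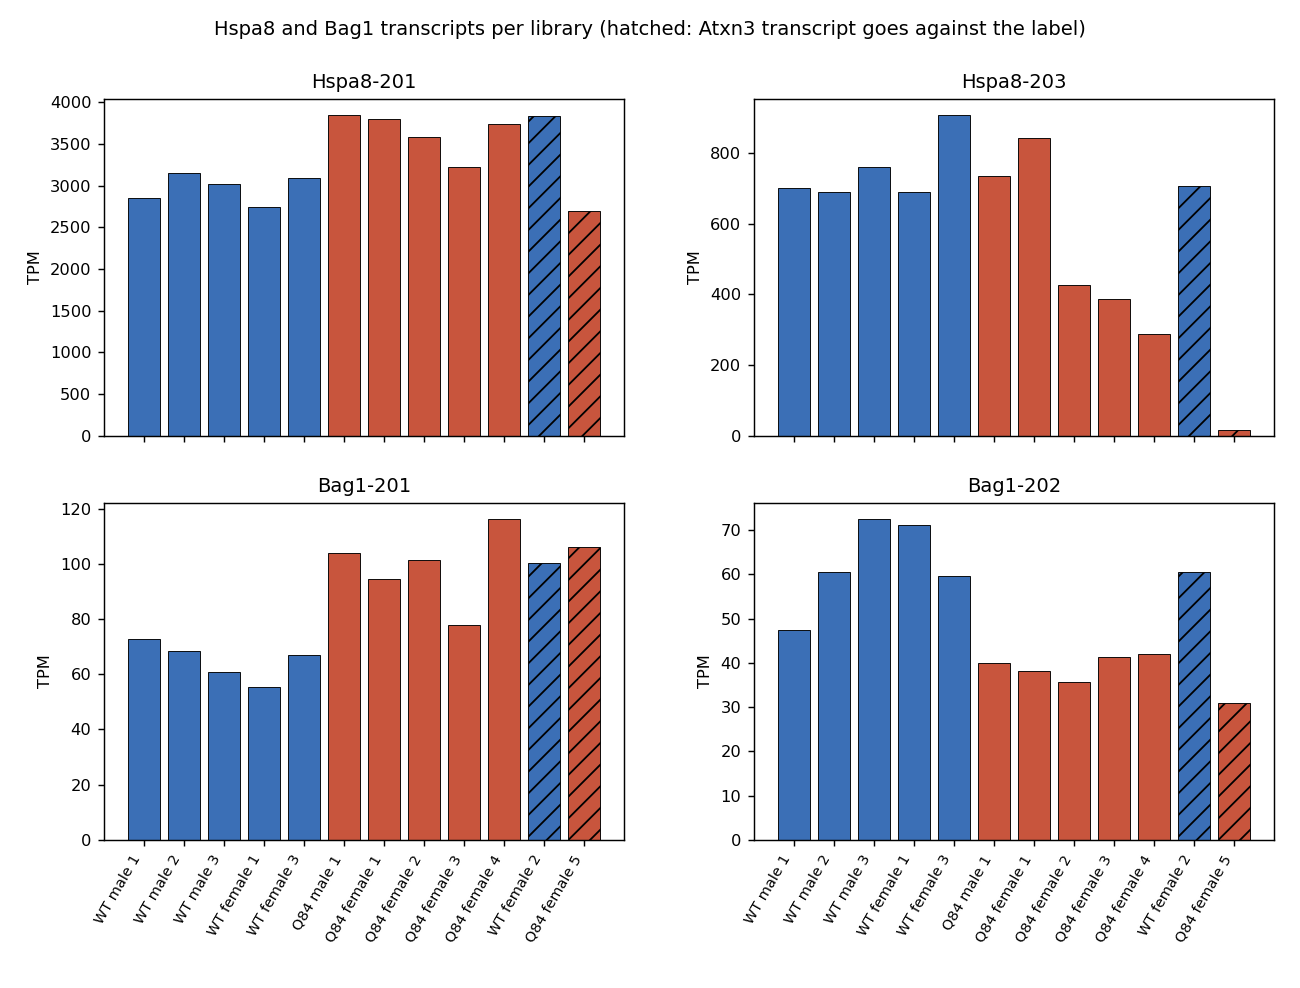
TPM of the Hspa8 transcripts 201 and 203 and the Bag1 transcripts 201 and 202 in each library, on axes that start at 0, with WT blue, Q84 red and the 2 libraries shown apart hatched. Hspa8-201 and Bag1-201 are higher in the 5 Q84 libraries than in the 5 WT libraries, Bag1-202 is lower, and Hspa8-203 drops to 15.2 TPM in Q84 female 5.

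DNAJ proteins choose the clients of HSP70. Dnajb1, the main stress-inducible DNAJ protein, measured 44.7, 48.0 and 47.2 CPM in WT male 1 to 3 and 50.1 and 53.0 CPM in WT female 1 and 3. The Q84 libraries held 58.8 CPM in the male and 60.9, 56.2, 53.6 and 65.9 CPM in females 1 to 4. All Q84 libraries lay above all WT libraries, though Q84 female 3 and WT female 3 were almost level. WT female 2 held 60.2 CPM, within the Q84 range, and Q84 female 5 held 55.1 CPM, also in it. The log2 fold change was 0.25 ± 0.081 (SE; edgeR adjusted p = 0.100) in 10 libraries and 0.17 ± 0.081 (edgeR adjusted p = 0.367) in 12. In 10 libraries it passed with DESeq2 (0.24, adjusted p = 0.0395) and in edgeR without the sex term (0.28, adjusted p = 0.0378). It passed in 0 of 10 fits that each left out 1 library, with edgeR adjusted p of 0.0606 to 0.378.

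The other 10 DNAJ genes did not pass in either comparison. Dnaja1, a farnesylated partner of Hspa8, was the most abundant of them, at 1139 ± 116 CPM in WT libraries and 1327 ± 99.1 CPM in Q84 libraries (SD, n = 5 each), and all 5 Q84 libraries lay above the WT mean. Dnajb4, a close relative of Dnajb1, stood at 109 to 150 CPM in WT and 128 to 156 CPM in Q84. Dnajb6 and Dnajb2, which both hold back the aggregation of polyglutamine proteins, stood at 218 to 261 and 72.3 to 90.7 CPM in WT and at 214 to 298 and 67.1 to 85.8 CPM in Q84. Among genes of the synapse, Dnajc5, the cysteine string protein of vesicles, stood at 212 to 287 CPM in WT and 197 to 257 CPM in Q84, and Dnajc6, the neuronal auxilin that works with Hspa8 on clathrin coats, at 130 to 234 and 162 to 210 CPM. Dnaja2, Dnaja4 and Dnajc7 had means of 288, 90.2 and 136 CPM in WT and of 291, 89.9 and 128 CPM in Q84. Dnajb5 was the scarcest, at 3.58 to 6.18 CPM in WT and 3.06 to 6.41 CPM in Q84.

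The 5 CCT subunits are parts of the same ring and had similar levels, with medians of 200 to 354 TPM. Cct4 measured 267, 241 and 231 CPM in WT male 1 to 3 and 252 and 264 CPM in WT female 1 and 3. In Q84 it measured 270 CPM in the male and 298, 287, 320 and 282 CPM in females 1 to 4. The groups were separate but close, since WT male 1 lay just under Q84 male 1. WT female 2 held 267 CPM, level with the highest WT library, and Q84 female 5 held 259 CPM, within the WT range. The log2 fold change was 0.18 ± 0.070 (SE; edgeR adjusted p = 0.176) in 10 libraries and 0.14 ± 0.067 (edgeR adjusted p = 0.350) in 12. Cct2, Cct3, Cct5 and Tcp1 overlapped between the genotypes, and Q84 female 3 was the highest library for all 5 subunits.

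St13 and Stip1 link HSP70 to HSP90. St13, also called HIP, stood at 317 ± 14.4 CPM in WT libraries and 324 ± 28.8 CPM in Q84 libraries, and Stip1, also called HOP, at 153 ± 23.8 and 160 ± 31.5 CPM (SD, n = 5 each). Stip1 was lowest in Q84 female 3 and WT male 1, at 114 and 119 CPM, the libraries in which Hsp90ab1 was also lowest.

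Summed over all 40 members, the 5 WT libraries held 17556 to 19373 CPM and the 5 Q84 libraries 20250 to 21158 CPM, with 20478 CPM in WT female 2 and 19107 CPM in Q84 female 5. The HSP70 class alone summed to 5280 to 5849 CPM in WT and 6652 to 7081 CPM in Q84, and the HSP90 class to 5101 to 5932 and 6107 to 6545 CPM. Single genes held most of these sums: Hspa8 had a mean of 4877 CPM in WT and 6064 CPM in Q84, and Hsp90aa1 of 3795 and 4652 CPM. Of the 6 HSP70 genes, 3 had a difference below zero in 10 libraries, so the sums do not describe the class as a whole. Per length, in TPM, the summed level of the 40 members overlapped, at 12717 to 14434 TPM in WT and 12809 to 14965 TPM in Q84.

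Sex was tested in the same 12 libraries. For male against female, edgeR called 0 members, where it called 0.0636% of all genes. At an unadjusted p under 0.05 were 2 members, Hspb6 and Hspe1, and 721 of all 18875 genes. DESeq2 called Hspb6, which was higher in males. For the interaction of sex with genotype, which rests on 1 Q84 male, edgeR and DESeq2 called 0 members where edgeR called 0.0424% of all genes, and Hspa4 and Hsph1 had an unadjusted p under 0.05. These 4 genes were named after their values were seen.

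Other chaperones were called about as often as all genes. Of 62 other cytosolic chaperones and co-chaperones, 60 were tested. In 10 libraries edgeR called 1 higher and 3 lower, where it called 6.45% of all genes. DESeq2 called 1 higher and 6 lower, where it called 10.3%. With limma-voom 1 was also called higher and 3 lower. Its share of all genes is not given here, so that count has no background. The edgeR values had a median log2 fold change of 0.02 against 0.01 over all genes. Dnajc12, a DNAJ protein that serves the aromatic amino acid hydroxylases, rose from 35.2 ± 2.02 CPM in WT to 51.7 ± 7.65 CPM in Q84 (SD, n = 5 each; log2 fold change 0.46 ± 0.100, edgeR adjusted p = 0.0164). Fkbp5, an HSP90 co-chaperone induced by glucocorticoids, fell from 26.8 ± 4.79 to 19.5 ± 3.40 CPM (-0.56 ± 0.146, edgeR adjusted p = 0.0403), with overlapping groups. Hsf5, a heat shock factor of the germ line, fell from 0.815 ± 0.141 to 0.406 ± 0.119 CPM (-1.22 ± 0.242, edgeR adjusted p = 0.0103), the lowest level of the 3 genes given here.

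When each of the 10 libraries was left out in turn, Dnajc12 and Hsf5 passed in 8 of 10 fits and Fkbp5 in 2. The log2 fold changes stayed at 0.39 to 0.58 for Dnajc12, -1.35 to -1.07 for Hsf5 and -0.64 to -0.51 for Fkbp5. Dnajc12 was lost without WT female 1 (edgeR adjusted p = 0.0645) and without WT female 3 (0.102). Hsf5 was lost without WT female 3 (0.0560) and Q84 male 1 (0.0675). Fkbp5 was kept only without WT male 1 or Q84 female 2, and its edgeR adjusted p without any of the other 8 libraries ran from 0.0638 to 0.149. In 12 libraries as labelled edgeR called 0 of the 60, and DESeq2 and limma-voom also called 0. By edgeR 13 were at an unadjusted p under 0.05, where 2695 of all 18875 genes were. Dnajc12, Fkbp5 and Hsf5 passed when Q84 female 5 alone was left out (edgeR adjusted p = 0.0156 to 0.0241).

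No gene of the chaperones in mitochondria or in the endoplasmic reticulum passed. Of 10 mitochondrial chaperones tested, edgeR, DESeq2 and limma-voom called 0 in either comparison, with 1 at an unadjusted p under 0.05 in each. The smallest p belonged to Hscb, Dnaja3 and Clpb, with edgeR adjusted p of 0.180, 0.338 and 0.284 in 10 libraries. Of 19 chaperones of the endoplasmic reticulum, all 3 tools called 0, with 2 at an unadjusted p under 0.05 in 10 libraries and 0 in 12. That level held 3785 of all 18721 genes in 10 libraries and 2695 of 18875 in 12. Hspa5, the HSP70 of this compartment known as BiP, stood at 384 to 452 CPM in WT and 458 to 507 CPM in Q84, without overlap, with 501 CPM in WT female 2 and 419 CPM in Q84 female 5 (0.16 ± 0.068, edgeR adjusted p = 0.213). Manf, a secreted stress-response factor, stood at 97 to 140 and 92 to 116 CPM (-0.27 ± 0.097, edgeR adjusted p = 0.139), and the collagen folding enzyme Ppib at 108 to 129 and 123 to 144 CPM.

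Some markers of nociceptors were lower in Q84 in the same 10 libraries, in which edgeR called 4.93% of all genes lower. Of 13 markers of non-peptidergic nociceptors edgeR called 8 lower, and their sum lay at 1092 to 2149 CPM in WT and 799.8 to 1080 CPM in Q84. Of 9 peptidergic markers 5 were lower, with sums of 2688 to 3282 CPM and 1457 to 2114 CPM. Pan-neuronal markers had 2 of 16 lower (Nefl and Pou4f1), with sums of 11003 to 13044 CPM in WT and 10374 to 11068 CPM in Q84. In bulk RNA, fewer cells of a type and less RNA per cell cannot be told apart. The sums of WT female 2 and Q84 female 5 were 1595 and 1976 CPM for non-peptidergic and 2250 and 2655 CPM for peptidergic markers. Immediate early genes, which report on recent activity or handling stress, had 3 of 20 tested lower (Arc, Atf3 and Jun). Of these 20 genes, 13 had a difference above zero and 7 below, with a median log2 fold change of 0.23. DESeq2 called the same 3 lower and 1 higher (Egr1), where it called 10.3% of all genes. The sum of the immediate early genes overlapped, at 200.0 to 250 CPM in WT and 212 to 231 CPM in Q84.

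Among non-neuronal markers, edgeR called 1 of 12 fibroblast genes higher (Pdgfra), 1 of 11 smooth muscle and pericyte genes higher (Abcc9) and 1 lower (Rgs5), and 1 of 10 adipocyte genes higher (Retn). It called 0 of 10 genes of satellite glia, 12 of Schwann cell myelin, 17 of skeletal muscle, 10 of endothelium, 12 of macrophages, 8 of granulocytes and 8 of red blood cells. Of them 1, 1, 1, 4, 2, 6 and 7 were at an unadjusted p under 0.05, where 3785 of all 18721 genes were. In these 7 lists DESeq2 called 2 endothelial genes (Egfl7 and Kdr), 1 granulocyte gene (Mpo) and 2 red blood cell genes (Hba-a1 and Slc4a1), and limma-voom Mpo and Hba-a1. DESeq2 called 10.3% of all genes in these libraries, and the share called by limma-voom is not given here. The sum of the smooth muscle and pericyte markers lay at 364 to 552 CPM in WT and 206 to 271 CPM in Q84, although 9 of the 11 genes had a difference above zero. Mitochondrially encoded genes, of which 1 of 13 was called higher (mt-Nd2), held 6.85 to 9.55% of counts in WT and 8.91 to 10.98% in Q84, with 7.53% in WT female 2 and 11.9% in Q84 female 5. None of the first 2 markers of each list was at 0 in any library. The part of these markers in the Hspa8 value, or in that of any other member, was not tested.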

How the data were processed

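RNA of dorsal root ganglia was enriched for poly(A) transcripts before library preparation, per the labels' protocols. The authors deposited for each of 12 libraries a table of estimated counts, lengths and TPM for 116313 transcripts, in the columns that kallisto writes. kallisto 0.46.2, STAR 2.7.10b and GRCm39 are named in the submitters' processing notes, without their roles, and which transcript release was used is not stated there. Transcripts were joined to genes by identifier with GENCODE M21, which matched 98.3% of them, and 0.751 to 0.804% of the estimated counts of a library were on unmatched entries and left out. For each gene the estimated counts of its transcripts were added, then rounded, and deposited TPM values were summed per gene without change. CPM values use TMM library sizes.

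Genotypes were compared with edgeR 4.0.16 (R 4.3.3; filterByExpr on the 4 groups, robust quasi-likelihood test, terms for sex and genotype, Benjamini-Hochberg adjustment over all genes, threshold 0.05), tested on simulated data. DESeq2 1.42.0, limma-voom (limma 3.58.1), other scalings and leaving out libraries were alternatives. No pair of replicates agreed within counting noise. Promoter windows come from RefSeq, GRCm38.p6, and no gene coordinates were taken from other builds.

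The members and gene lists were chosen with earlier results of these data known, so no p-value is adjusted over a list alone. Full statistics are given for members that passed and for the 6 of smallest p in each comparison, and for other chaperone lists for genes that passed or the 3 of smallest p. Of the other cytosolic chaperones that passed, 1 gene is counted but not reported here.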

Additional observations from a re-analysis of the deposited data

Results flagged for a closer look

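Within the group of 5 Q84 female libraries, 4 of the 40 members had 1 library standing apart from the rest by Dixon's criterion, which chance meets in about 1 in 20 groups. In 3 of these 4 the library was Q84 female 5, whose Atxn3 transcript goes against its label. Hspa1b, an inducible HSP70, measured 4.16 CPM in Q84 female 5 and 1.52 to 1.80 CPM in the other 4. Hspa8 measured 4598 CPM in Q84 female 5, below the 5969 to 6367 CPM of the others. Hspa12a, the brain-enriched HSP70 relative, measured 366 CPM there, above the 230 to 266 CPM of the others. Dnajc5, the cysteine string protein gene, was lowest in Q84 female 3, at 197 CPM, where the other 4 held 226 to 233 CPM.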

How the results depend on the processing

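In 12 libraries as labelled, 0 members were called in every alternative run, as were 0 for the interaction of sex with genotype. In 10 libraries the count of 1 became 3 with DESeq2 (Dnajb1, Hspa8 and Hspb6), 2 without the sex term (Dnajb1 and Hspa8), and 0 with length-scaled TPM and in female libraries alone. Leaving out 1 library at a time gave 0 to 3 calls, with 3 (Hspa8, Hspb1 and Dnajb4) without WT male 1. The single call without WT female 1 and without Q84 female 3 was Hspb6 and not Hspa8. For male against female, DESeq2 called 1 member, Hspb6. Apart from DESeq2 in 10 libraries, the share of all genes called in these alternative fits is not given here. Their counts of members therefore have no background to be read against. With the replicate number as a block, 0 members were called in 10 libraries, and Hspa8 had an edgeR adjusted p of 0.104. The same-numbered WT and Q84 females had correlations of deviations of -0.037, -0.189 and 0.167. So few pairs, of which 1 includes WT female 2, cannot decide whether the numbers pair the libraries. The difference of Hspa5 in 12 libraries reversed to -0.00041 in females alone and to -0.00053 without Q84 male 1, where leaving out other single libraries gave up to 0.13 (without WT female 2), and the cause was not tested. A sign change in some alternative was seen for 18 of 40 members in 12 libraries, none with a size over 0.148, and for 17 of 40 in 10 libraries, none over 0.160. The cause of a changed count was not tested. With standard errors of 0.065 to 0.216, small differences of scarce members such as Hspa1a and Dnajb5 were not detectable.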
